A study of Mus musculus with 2 samples.

Results

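*Clu*, *Tbc1d16*, *Wfdc16*, *Ubd* and *Kcnmb3* were among the genes with the largest rises in TCRαβ+CD8αα+ intraepithelial lymphocytes (IELs) of mice that carry floxed *Rbpj* alleles and the CD4-Cre transgene. They were chosen as members for that rise, with amylase, trypsin and other genes on lists of other cell types set aside, so the rise itself is a description here and not a finding. The 5 genes were found by the RefSeq accessions of their probes, which resolved to 6 probes for 5 of the 20887 named genes on the array, with 2 probes for *Wfdc16* and 1 for each of the others. Each probe was printed in 1 spot.

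RNA came from small intestinal IELs of C57BL/6 mice aged 8 to 12 weeks, male and female pooled, from which CD4+ and TCRγδ+ cells were depleted and TCRβ+CD8α+ cells negative for TCRγδ, CD4 and CD8β were sorted. The Control group was Rbpjf/f and the RFF4 group was CD4-Cre Rbpjf/f, a model in which Cre acts in all cells that have passed through a CD4-expressing stage and not only in IELs. The labels name no Cre for the Control group, whereas the study's text describes control mice that carry CD4-Cre with unfloxed *Rbpj*. RNA of several isolations was pooled for each group, and each pool was hybridized to 1 Agilent array of 1 color, so 2 arrays were compared, no test between groups was possible and the number of arrays limits the precision.

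RBPJ is the DNA-binding protein through which cleaved Notch receptors switch on their target genes, and without bound Notch it can recruit corepressors to the same sites. TCRαβ+CD8αα+ IELs lie between the epithelial cells of the gut, and the known products of the raised genes do not share a pathway. Clusterin is a secreted chaperone, FAT10 (encoded by *Ubd*) is a ubiquitin-like protein that marks other proteins for the proteasome, TBC1D16 switches off a Rab GTPase of endosomes, KCNMB3 is an accessory subunit of a potassium channel, and WFDC16 belongs to a family of small secreted proteins that includes protease inhibitors.

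On the Control array 57.2% of 59305 gene spots were well above background by the scanner software, and on the array labelled RFF4 49.7% were. No spot was saturated (0 on each array). The 2 *Rbpj* probes, which should check the labels, were lower on the array labelled RFF4 before scaling, at 1979 and 1101 for the brighter probe and 188.4 and 147.9 for the other, and not lower after it. After scaling, the brighter probe read 2.17 on the Control array and 2.48 on the array labelled RFF4, and the other read −1.23 and −0.42. The sources used here do not place the probes on the floxed exons, so the arrays are named by their labels throughout. Scaling on the spike-in controls in place of each array's 75th percentile changed the difference of the brighter *Rbpj* probe from 0.31 to −0.80.

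The sequences before the annotated starts of the members were compared because the genes had been grouped only by their rise. RefSeq promoters (build GRCm38.p6) were matched by symbol for 3 of the 5 members. The 250 bases before the start are printed 5′ to 3′ on the strand of the gene, with capitals for every match to the motifs searched. The regions are chr2:164638803-164639052 (minus strand) for *Wfdc16*, chr3:32491970-32492219 (minus strand) for *Kcnmb3* and chr17:37193642-37193891 (plus strand) for *Ubd*. *Clu* and *Tbc1d16* are named only.
Wfdc16: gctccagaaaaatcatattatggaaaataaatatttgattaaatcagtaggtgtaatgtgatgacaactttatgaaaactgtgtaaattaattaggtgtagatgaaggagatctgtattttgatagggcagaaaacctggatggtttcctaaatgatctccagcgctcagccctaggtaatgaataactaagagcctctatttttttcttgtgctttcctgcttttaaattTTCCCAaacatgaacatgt
Kcnmb3: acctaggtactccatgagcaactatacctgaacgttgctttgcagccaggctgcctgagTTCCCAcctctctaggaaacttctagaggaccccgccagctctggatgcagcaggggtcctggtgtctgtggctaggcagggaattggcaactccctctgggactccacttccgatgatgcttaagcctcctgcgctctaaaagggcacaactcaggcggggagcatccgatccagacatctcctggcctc
Ubd: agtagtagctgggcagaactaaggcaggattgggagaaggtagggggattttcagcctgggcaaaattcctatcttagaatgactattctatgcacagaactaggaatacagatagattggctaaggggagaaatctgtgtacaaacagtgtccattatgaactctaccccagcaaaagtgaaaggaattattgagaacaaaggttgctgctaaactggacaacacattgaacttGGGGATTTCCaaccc

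The motifs were searched on both strands. The RBPJ core TGGGAA, read as TTCCCA on the other strand, was matched in *Wfdc16*, from base 19 to base 14 before the start, and in *Kcnmb3*, from base 191 to base 186. It is a common run of letters, held by 21.6% of all 32851 promoters in the same window. The longer RBPJ motif CGTGGGAA, which contains the core, was matched in none of these 3 windows and in 0.636% of all promoters. *Ubd* held GGGGATTTCC from base 15 to base 6 before its start. This matches GGG and TTTCC with any 2 bases between them, a form of the κB element bound by NF-κB, which 1.41% of all promoters held. Neither the interferon-stimulated response element, searched as GAAA and GAAA with any 2 bases between them and held by 2.98% of all promoters, nor the STAT element TTCNNNGAA (7.02%), nor TATAAA (12.4%) was matched in these 3 windows. The GC content was 33.6% in *Wfdc16*, 57.2% in *Kcnmb3* and 42.8% in *Ubd*, against a median of 52.4%. A match describes letters and shows no binding.

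All 5 members were brighter on the array labelled RFF4, before any scaling as well as after it. *Clu* had a background-subtracted signal of 56.9 ± 6.18 (error of the scanner software) on the Control array and 446.5 ± 44.7 on the array labelled RFF4. *Tbc1d16* read 13.2 ± 2.89 and 91.7 ± 9.54. Both genes were well above background on each array. The spot errors leave out variation between mice. *Ubd* read 7.64 ± 2.71 on the Control array, positive and significant for the software but not well above background, and 121.7 ± 12.5 on the array labelled RFF4. *Kcnmb3* read 2.88 ± 2.89 and 92.4 ± 9.31. The brighter *Wfdc16* probe read 3.12 ± 3.14 and 160.0 ± 20.6. Thus *Kcnmb3* and *Wfdc16* had Control signals no larger than their error, and 3 of the 5 members were well above background only on the array labelled RFF4. The other *Wfdc16* probe read 2.56 ± 2.57 and 2.58 ± 2.58, not well above background on either array, so 1 of the 2 probes carries the whole *Wfdc16* result.

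**Figure D1:**
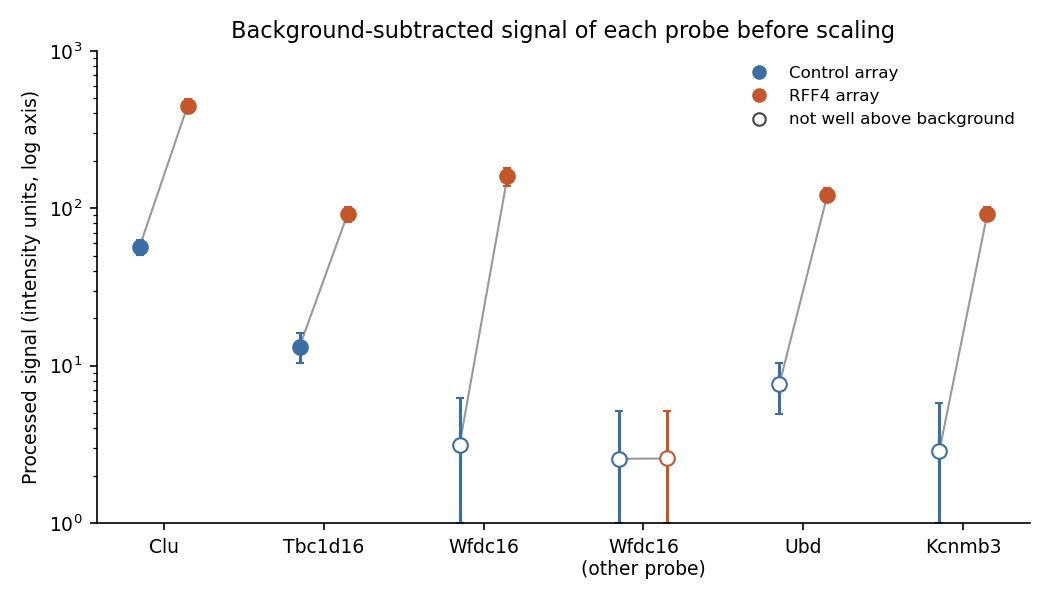
Background-subtracted signal of each of the 6 probes on the Control array (blue) and the array labelled RFF4 (orange), before scaling, on a log axis. Bars are the error of the scanner software for 1 spot, those that reach the lower edge run on to about 0, and open circles are not well above background. The signal is higher on the array labelled RFF4 for 5 probes and at background on both arrays for the other *Wfdc16* probe.

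The unprocessed spots show the same order. The median pixel of the *Clu* spot was 98.0 over a local background of 33 on the Control array and 509.0 over 41 on the array labelled RFF4. For *Tbc1d16* it was 48.0 over 32 and 133.0 over 42. For *Ubd* it was 46.0 over 37 and 165.0 over 45. The *Kcnmb3* spot was 35.0 over 23 and 110.0 over 31, and the brighter *Wfdc16* spot was 37.0 over 32 and 135.0 over 33. On the array labelled RFF4 that *Wfdc16* spot was 102 above its local background, less than its processed signal of 160.0. The local background was higher on the array labelled RFF4 at each of these spots, but by much less than the pixels of the spot were. The other *Wfdc16* spot was 38.5 over 30 on the Control array and 37.0 over 37 on the array labelled RFF4.

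For comparison between arrays, log2 signals were set relative to the 75th percentile of each array, and differences are given as RFF4 minus Control. *Clu*, a chaperone that is also known as apolipoprotein J and that marks regenerating epithelium in the injured mouse intestine, rose from −2.95 to 1.18, a difference of 4.13 or 17.5-fold. *Tbc1d16*, a GTPase-activating protein that acts on Rab4a, rose from −5.06 to −1.11, a difference of 3.95 or 15.5-fold. For the others the Control value is at most a bound, so the fold was taken against the lowest signal well above background on that array, or against the own signal of the probe where that was higher. *Wfdc16* was at least 31.8-fold higher by its brighter probe, *Ubd* at least 24.2-fold and *Kcnmb3* at least 18.4-fold. As differences these bounds are 4.99, 4.60 and 4.20. Here and below, "at least" holds only against that reference signal and under this scaling. It is no limit across ways of processing, since normexp background correction gave 2.33, 2.41 and 1.98. The scaled signals on the array labelled RFF4 were −0.30, −0.70 and −1.10 for these 3 genes, all above its lowest signal well above background, −4.10.

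Across repeated spots, the technical SD of a log2 difference was 0.16 for probes well above background. Dim probes vary more. Among probes with 10 spots whose signal lay within 1 log2 unit of that of the member, the spot SD on the Control array was 0.15 near *Clu* (34 probes), 0.45 near *Tbc1d16* (42 probes) and 0.60 near *Ubd* (47 probes). The corresponding SD of the difference was 0.16 for *Clu* and 0.46 for *Tbc1d16*. These SDs cover spot to spot error and no variation between mice or pools.

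The constant that sets the arrays equal is part of every scaled value. It adds 1.16 to each log2 ratio, so that the rise of *Clu* was 7.84-fold before scaling and that of *Tbc1d16* 6.93-fold. Scaling on 8 spike-in controls shifted all genes by −1.11, which turns the sign of every smaller rise in the text and moves the counts past 2-fold, and gave 3.02 for *Clu*, 2.84 for *Tbc1d16*, 3.88 for *Wfdc16*, 3.49 for *Ubd* and 3.09 for *Kcnmb3*. Normexp background correction gave 3.06, 2.02, 2.33, 2.41 and 1.98 in the same order, which leaves *Kcnmb3* just under 4-fold.

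**Figure D2:**
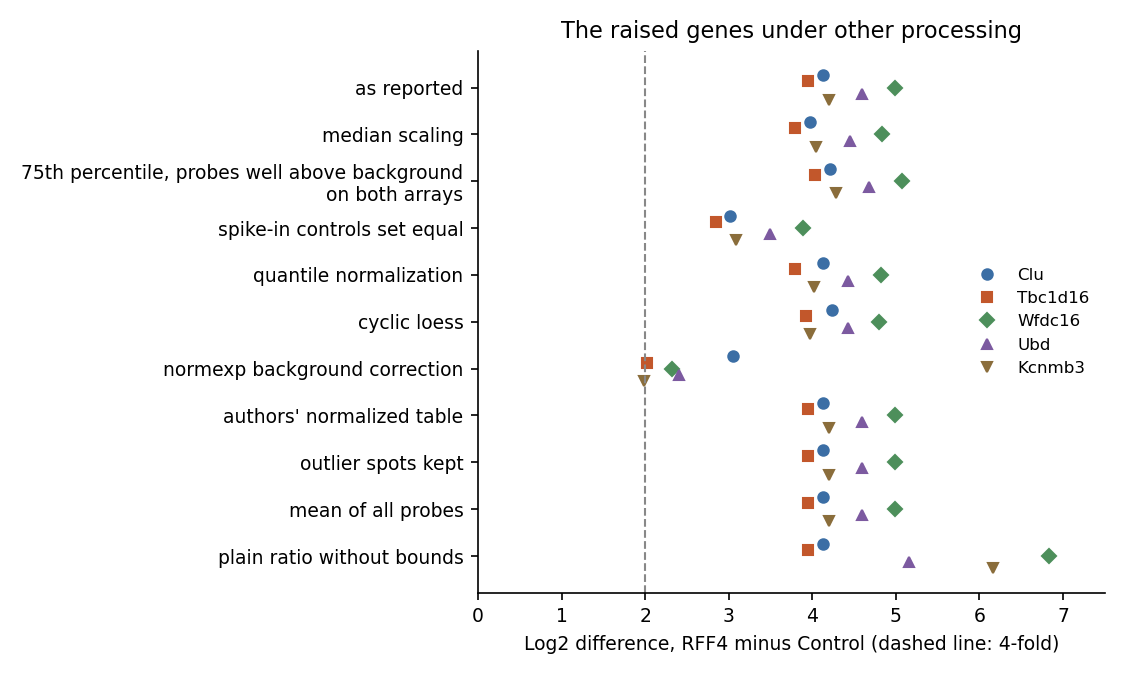
Log2 difference (horizontal axis, RFF4 minus Control) of each member as reported and under 10 other ways of processing (rows), with a dashed line at 4-fold. All points lie above 0, and only *Kcnmb3* under normexp background correction, at 1.98, falls below the line.

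A difference could be given for 13519 genes. All 5 members passed 4-fold upward, as did 1.79% of all genes, a comparison from which nothing is read since the rise chose the members. By size of the difference, bounds included, *Wfdc16* was at place 2, *Ubd* at 5, *Kcnmb3* at 6, *Clu* at 7 and *Tbc1d16* at 8. The gene at place 1 was *Amy2a5*, a pancreatic amylase, with a difference of 5.45, and the trypsin genes *Try4* and *Try5* were at places 3 and 4. Just below the members were *Wnt8b* at 3.92, as a bound, and *S100a4*, a calcium-binding protein, at 3.89. *Try4*, *Try5* and *Wnt8b* were named after their values were seen. Measured by the difference alone, over 2 arrays and 12955 genes that both arrays detected, the genes most like *Clu* were therefore *Amy2a5* above it and *Tbc1d16* below it. *S100a4* came next below *Tbc1d16*. The steps from *Clu* (4.13) to *Tbc1d16* (3.95) and from there to *S100a4* are smaller than the spot SD near *Tbc1d16*, so this order is not resolved.

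**Figure D3:**
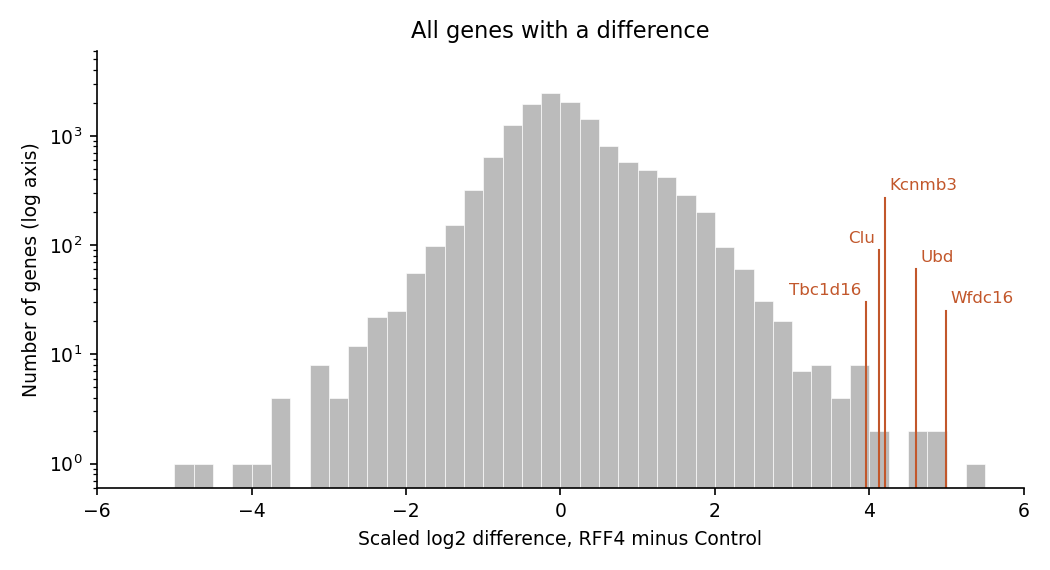
Number of genes (vertical log axis) by scaled log2 difference, RFF4 minus Control, for the 13519 genes with a difference, in steps of 0.25. Orange lines, whose heights carry no value, place the 5 members at 3.95 to 4.99, beyond nearly all other genes, with *Amy2a5* at 5.45 farther right.

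Genes more than 4-fold higher numbered 242 and genes more than 4-fold lower 79 (0.584%). This split depends on the processing. It was 180 to 111 with median scaling, 58 to 35 with normexp, 282 to 158 for plain ratios without bounds and 29 to 941 when scaled on spike-ins. Among the 242 genes, 60 were well above background only on the array labelled RFF4, as *Wfdc16*, *Ubd* and *Kcnmb3* were. Large rises were most frequent among dim genes. When genes were divided into 8 bins by mean signal, the dimmest bin held *Tbc1d16*, *Wfdc16*, *Ubd* and *Kcnmb3*, and 93 of its 1690 genes (5.5%) passed 4-fold upward. In the bin of *Clu*, the third from the dim end, it was 1.89%, and in the brightest bin 0.592%. The part of signal intensity in the rises was not tested.

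Genes next to the members on the chromosome were taken from the order of protein-coding genes in RefSeq, after the rise of the members was known. Of the 4 nearest neighbors of each member, none that could be measured differed by more than 2-fold. Among all genes 12.1% were more than 2-fold higher and 5.21% more than 2-fold lower, so nothing is read from so few neighbors. For *Kcnmb3* all 4 could be measured. *Pik3ca* differed by −0.44, *Zmat3* by 0.13, *Zfp639* by −0.26 and *Mfn1* by 0.11. Around *Tbc1d16*, the Polycomb gene *Cbx8* differed by −0.84 and *Gaa* by −0.35. *Clu* had 1 measured neighbor, *Ccdc25*, at −0.21, and *Ubd* had 1, the olfactory receptor gene *Olfr94*, at 0.47. *Wfdc16* lies among its relatives *Wfdc8*, *Wfdc6b*, *Wfdc9* and *Wfdc10*, none of which was well above background on the array labelled RFF4.

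The family of WFDC16 was examined next. The WAP domain is held by 4 disulfide bonds, and relatives such as SLPI inhibit neutrophil proteases. Of 26 other family names, 25 had probes, 10 were well above background on at least 1 array and 8 had a difference. The median was 1.14, against −0.03 for all genes with a difference. More than 4-fold higher were 3 of the 8 (1.79% of all genes were), 2 of them well above background on the array labelled RFF4 alone, and more than 4-fold lower 0 (0.584% of all genes). *Slpi*, secreted by epithelium and myeloid cells, rose from −1.57 to 1.12, a 6.44-fold difference well above background on both arrays. *Wfdc18* was at least 14.7-fold higher and *Wfdc17* at least 4.96-fold. *Wfdc2*, an epithelial secreted protein, went from −4.83 to −2.86, which is 3.93-fold. The others differed by less than 2-fold, with *Wfikkn2* at 0.30, *Wfdc13* at 0.18, *Wfdc1* at −0.05 as a bound and *Wfikkn1* at −0.86, while *Wfdc3* and *Wfdc8* were well above background only on the Control array, with no difference given. The median was −0.72 when scaled on spike-ins, 0.31 with cyclic loess, 0.28 without bounds, 0.30 over the genes that both arrays detected and 2.05 with the percentile taken over probes of that kind, so its sign and size rest on the processing.

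FAT10 is attached to proteins by the activating enzyme UBA6 and the conjugating enzyme USE1 (*Ube2z*), its degradation is sped up by NUB1, and its gene is induced by interferon-γ together with TNF. None of these partners differed by more than 2-fold. *Uba6* differed by −0.43 (its other probe by 0.29), *Ube2z* by −0.06 and *Nub1* by 0.15. In the list of 12 conjugation and degradation genes, 11 were measured, 0 were more than 2-fold higher (12.1% of all genes were) and 0 more than 2-fold lower (5.21% of all genes). Their median of −0.03 ran from −1.14 on spike-ins and −0.18 with median scaling to 0.06 with no filter and no bound. The immunoproteasome subunits *Psmb8*, *Psmb9* and *Psmb10*, which interferon-γ also induces, were higher by 0.72, 0.86 and 0.55. Among 19 other ubiquitin-like and ubiquitin genes the lowest difference was −0.64, for *Isg15*, and 0 passed 2-fold in either direction by the probe that stands for the gene. Another probe of *Rps27a* went the other way at −1.11, against 0.53 for the probe that stands for it.

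Of 26 genes that respond to interferon-γ or TNF, 25 had a difference, 4 were more than 2-fold higher (12.1% of all genes were) and 0 more than 2-fold lower (5.21% of all genes), with a median of −0.16 that became −0.34 with normexp and −1.27 on spike-ins. The 4 were *Gbp6* at 1.78, whose other probe went the other way at −0.66, *Tnf* at 1.43, the interferon-γ receptor chain *Ifngr2* at 1.33 and the chemokine gene *Cxcl9* at 1.07. *Ifng* itself differed by 0.48, *Irf1* by −0.53 and *Cxcl10* by −0.61.

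TBC domain proteins stimulate Rab GTPases to hydrolyze GTP. Of 39 other family names, 37 had probes and 34 had a difference, of which 27 were negative and 7 positive, beside 7023 negative and 6496 positive among all genes with a difference. The median was −0.29, against −0.03 for all genes, and became −0.44 with median scaling and −1.40 on spike-ins. More than 2-fold higher were 3 of the 34 (12.1% of all genes were), more than 2-fold lower were 3 (5.21% of all genes), and 0 passed 4-fold either way. The 3 higher genes were *Rabgap1*, *Sgsm1* (1.64 as a bound) and *Grtp1* (1.21). The closest relatives, *Tbc1d15* and *Tbc1d17*, differed by −1.02 and −0.52. The lowest difference was −1.73 for *Tbc1d4*, which acts in GLUT4 traffic, and the highest 1.82 for *Rabgap1*, whose probes ranged from 0.18 to 1.82. The substrate *Rab4a* differed by 0.40 and *Rab4b* by −0.05. *Rab5a*, *Rab5b* and *Rab5c*, of early endosomes, differed by −0.52, 0.12 and 0.18. Of 19 endosomal genes 0 were more than 2-fold higher and 1, the early endosome tether *Eea1* at −1.22, was more than 2-fold lower.

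KCNMB3 tunes the large-conductance, calcium-activated BK channel, whose pore is encoded by *Kcnma1*. That pore gene was not well above background on either array with any of its 3 probes, and neither were *Kcnmb1* and *Kcnmb2*. *Kcnmb4* was well above background on both and differed by −0.60. Of 15 channel genes and relatives, 4 had a difference, with a median of 0.87 that became −0.17 on spike-ins. *Lrrc26*, an accessory BK subunit of secretory epithelium, differed by 1.64 (3.12-fold), *Lrrc38* by 0.51, and *Kcnn4*, the intermediate-conductance potassium channel of T cells and epithelium, by 1.23. The *Kcnmb3* probe thus rose where the transcript of the pore was not detectable at this signal over background.

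Clusterin binds lipoprotein receptors, other apolipoproteins, complement proteins and BAX. Of 28 such names, 16 were well above background on at least 1 array and 13 had a difference, 10 of them higher, with a median of 1.08 that became −0.08 when scaled on spike-ins. More than 2-fold higher were 8 (12.1% of all genes were) and more than 4-fold higher 0 (1.79% of all genes). The 8 included 4 apolipoprotein genes that enterocytes transcribe, *Apob* (1.91), *Apoa1* (1.88), *Apoc3* (1.47) and *Apoa4* (1.07). The others were *Apoe* (1.68), the haptoglobin gene *Hp* (1.88), the lipoprotein receptor gene *Vldlr* (1.29 as a bound) and *Apod* (1.08), whose other probe went the other way at −1.20. *Cd59a*, an inhibitor of the complement attack complex that clusterin also blocks, was at least 4.09-fold lower. *Bax* differed by 0.16. *Lrp8* was well above background only on the Control array, with no difference given, and *Clul1* was not matched.

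In the list of YAP target genes and genes of regenerating epithelium, the setting in which *Clu* is best known in the intestine, 10 of 15 had a difference, 9 of them higher, beside 6496 of 13519 among all genes, with a median of 1.47. Past 4-fold upward were 2, as were 1.79% of all genes. *Ly6a*, which encodes the surface antigen Sca-1 and is expressed by lymphocytes as well as by regenerating epithelium, rose from −2.86 to 0.47 (10.1-fold). *Msln* was at least 5.19-fold higher. *Anxa1* differed by 1.97, *Areg* by 1.88 and *Sprr1a* by 1.25. The YAP targets *Ccn2*, *Ankrd1* and *Ajuba* were not well above background on either array, while *Ccn1* differed by 0.91, *Amotl2* by 0.86, *Axl* by 0.29 and *Lats2* by −0.94. The median was 1.04 with normexp background correction and 0.14 when scaled on spike-ins.

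**Figure D4:**
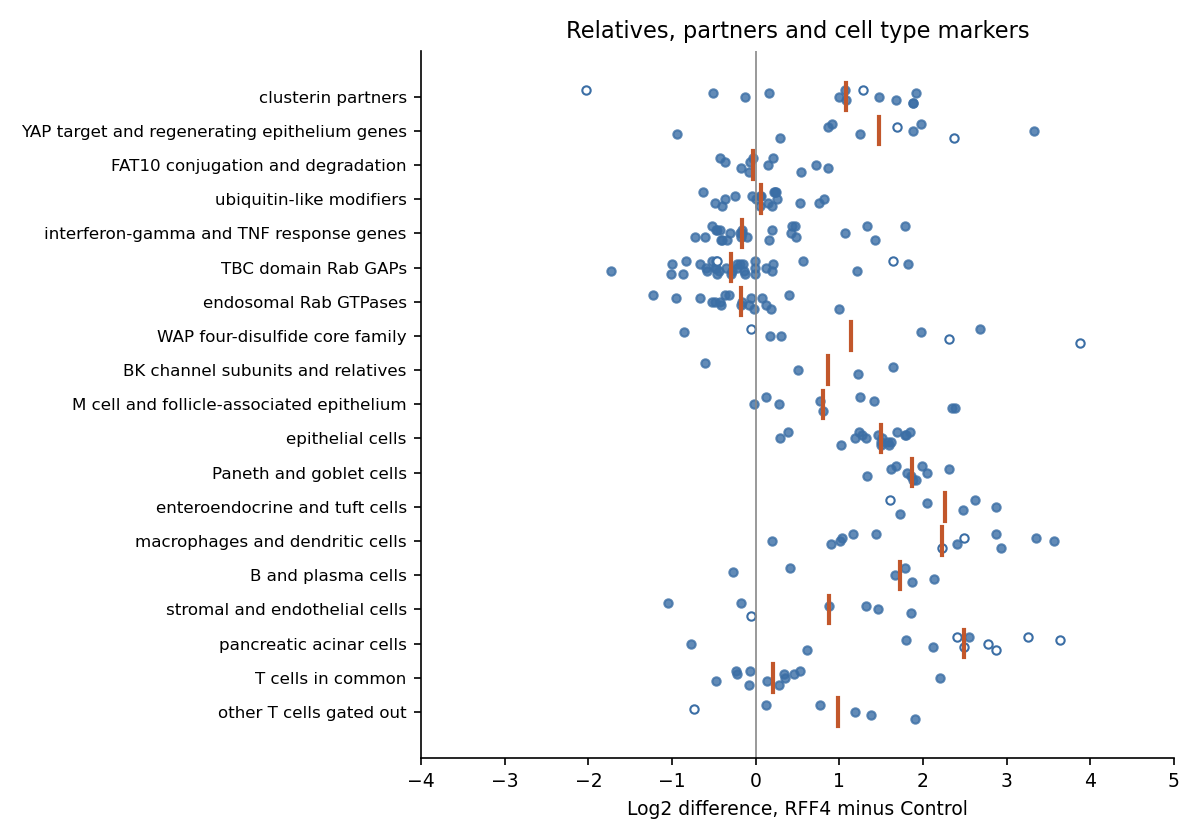
Scaled log2 difference (horizontal axis, RFF4 minus Control) of each measured gene of 19 lists (rows), members left out. Filled points are well above background on both arrays, open points are bounds, and orange bars are medians. The lists of FAT10, interferon and TBC genes lie around or below 0, and those of gut epithelium, myeloid and pancreatic cells lie above it.

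Most markers of cells other than IELs were higher on the array labelled RFF4. Exceptions were *Pecam1* (−1.05), *Col1a1* (−0.17) and *Acta2* (−0.06 as a bound) among the stromal and endothelial genes, *Cela1* (−0.77), *Cd79b* (−0.27), *Cd8b1* (−0.74 as a bound) and the M cell list gene *Aif1* (−0.02). All 18 epithelial markers were higher, 16 of them more than 2-fold (12.1% of all genes were) and 0 more than 4-fold (1.79% of all genes), with a median of 1.50 that became 0.39 on spike-ins, and the log2 of their summed scaled signal went from 8.16 to 9.74. All 10 Paneth and goblet cell genes measured were more than 2-fold higher (median 1.87, 0.76 on spike-ins, sum 7.77 to 9.61), with *Mmp7* and *Ang4* past 4-fold. So were all 6 enteroendocrine and tuft cell genes with a difference (median 2.26, 0.94 on spike-ins, sum 3.49 to 5.51), with *Chga*, *Chgb*, *Gcg* and *Cck* past 4-fold. The only tuft cell gene among them was *Trpm5*, at 1.61 as a bound. The tuft cell gene *Dclk1* was well above background only on the Control array, with no difference given. *Pou2f3*, *Il25*, *Gfi1b* and *Neurod1* were well above background on neither array. Of 13 macrophage and dendritic cell genes 13 were higher and 7 past 4-fold, namely *Cx3cr1*, *Lyz2*, *C1qa*, *C1qc*, *H2-Aa*, *H2-Ab1* and *Cd74* (median 2.22, 1.19 with normexp, 1.44 over genes detected on both arrays and 1.11 on spike-ins, sum 6.46 to 7.61). *Itgax*, at 5.73 on the Control array and 5.92 on the other, made the largest part of that sum. Of 11 pancreatic acinar genes 8 were past 4-fold, namely *Cpa1*, *Cpb1*, *Pnlip*, *Ctrb1*, *Prss2*, *Cela2a*, *Cela3b* and *Pnliprp1* (median 2.49, 1.45 with normexp, 1.80 over genes detected on both arrays, 3.59 without bounds and 1.38 on spike-ins, sum 4.53 to 4.21, which *Cela1* carries). For B and plasma cells the median of 6 genes was 1.72 (0.99 with normexp, 0.61 on spike-ins, sum 4.93 to 6.07), with *Mzb1* past 4-fold and *Cd79a* and *Pax5* not well above background. Stromal and endothelial genes had a median of 0.87 over 7, 4 of them higher (sum 2.80 to 4.01, median −0.24 when scaled on spike-ins), and genes of T cells removed by the gate 0.98 over 6 (sum 2.18 to 2.49, median −0.13 on spike-ins), with *Cd4* at 0.12 by the probe that stands for it and −1.33 by the other. The stromal and endothelial sum is largely *Kdr*, and that of the T cells removed by the gate is largely *Cd4*.

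M cells and the epithelium over lymphoid follicles are sites where *Clu* and *Ubd* are known to be expressed. Of 12 marker genes 9 were measured, 8 of them higher (6496 of 13519 among all genes), with a median of 0.81 (sum 4.11 to 4.81) that became −0.30 on spike-ins. *Ccl9* (2.35) and *Pglyrp1* (2.38) were past 4-fold, as were 1.79% of all genes, *Tnfrsf11a*, the receptor for RANKL, differed by 1.41 and the M cell transcription factor gene *Spib* by 1.24. The listed markers *Gp2*, *Ccl20* and *Sox8* were not well above background on either array. Peyer's patches had been removed before the IELs were isolated, according to the study's methods.

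Genes that T cells share stayed bright on both arrays and had a median of 0.21 over 12 genes (sum 10.6 to 10.9), which ran down to −0.23 with quantile normalization and −0.90 on spike-ins. *Cd3e* went from 8.31 to 8.64, *Cd8a* from 6.45 to 6.37, and *Cd2* alone of the 12 was past 4-fold upward at 2.21 (1.79% of all genes were). These genes mark T cells, and do not set the sorted cells apart from those that were gated out. *Cd8b1*, absent from the sorted cells by the gate, was well above background only on the Control array, at −3.31, whereas *Cd4*, also gated out, was well above background on both, at 1.88 on the Control array and 0.12 higher on the other. The part of RNA from these cells in the rises of the 5 members was not tested, and in bulk RNA more cells of a type and more RNA per cell cannot be told apart.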

How the data were processed

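Total RNA of sorted IELs, pooled over several isolations, was labelled with Cy3 from 150 ng and hybridized to Agilent SurePrint G3 mouse arrays, 1 per group. The authors deposited scanner output made with Agilent Feature Extraction 10.7.1.1, per the labels, whose processed signal is a background-subtracted intensity for each spot. They also deposited a normalized log2 table centred per probe, which was used as an alternative. Its GeneSpring settings are not given in the sources used here. Both arrays lay on the same slide and scan. Each group was its own pool, so isolation, sorting and labelling cannot be told apart from genotype. Columns of per-sample values that could not be assigned numbered 0.

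Control spots and outlier spots were left out, log2 intensities were set relative to the 75th percentile of each array, and spots of 1 probe were averaged. Probes were named through RefSeq accessions, and 27509 of 29150 probes with an accession were matched to a symbol. The brightest probe stood for a gene. A gene not well above background on 1 array received a bound against the lowest signal well above background there or its own signal, whichever was higher, and no difference where that left no change in the same direction. With 1 array per group no test was run, and the spot SD came from probes with 10 spots. The arrays give no sequencing depth, so their number limits the precision. The script was tested on simulated data for this comparison with 13295 genes, where 100 of 100 genes raised by 3 log2 units and 81 of 100 genes lowered by 3 were recovered past 4-fold. The changed genes all lay above the lowest signal well above background on the Control array. Noise was equal at every signal and smaller than the spot SD near *Tbc1d16* and *Ubd*. The simulation therefore checks the script and says nothing about bounds such as those of *Wfdc16*, *Ubd* and *Kcnmb3*.

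The members and gene lists were chosen with earlier results of these data known. Named genes are the members, *Rbpj*, the nearest genes by difference, list genes past 4-fold, preset close relatives and partners, and measured WAP genes, and other list genes were named after their values were seen. Values of some single genes are not reported here. The array design is annotated on another mouse build (mm9) than the RefSeq table (GRCm38.p6), so no coordinates were taken for probes or genes, and promoter positions are those of the RefSeq promoter table. Alternatives were median, quantile, cyclic loess and spike-in scaling, a percentile over probes detected on both arrays, normexp background correction (offset 50), the normalized table, outliers kept, the mean of all probes, and other filters. Python 3.11.15, pandas 2.3.3, R 4.3.3 and limma 3.58.1 were used.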

Additional observations from a re-analysis of the deposited data

How the results depend on the processing

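The 5 members were higher on the array labelled RFF4 under all 10 alternatives that were run for them. The values of *Clu*, *Tbc1d16*, *Wfdc16*, *Ubd* and *Kcnmb3* moved beyond the technical SD to 3.06, 2.02, 2.33, 2.41 and 1.98 with normexp background correction. Spike-in scaling gave 3.02, 2.84, 3.88, 3.49 and 3.09. *Wfdc16*, *Ubd* and *Kcnmb3* moved to 4.82, 4.43 and 4.02 with quantile normalization, to 4.80, 4.43 and 3.97 with cyclic loess, and to 6.84, 5.15 and 6.16 as plain differences without bounds. These last values rest on Control signals near their error. The mean of all probes left out the *Wfdc16* probe at background, so it does not weigh the disagreement of the 2 probes. Genes more than 4-fold higher numbered 58 with normexp, 29 with spike-ins and 682 with no filter and no bound, and genes more than 4-fold lower 35, 941 and 158 in the same order, with 158 also for plain differences. The spike-in setting shifts all genes by −1.11, and the cause of the other changes was not tested. Of 228 list medians under the alternatives, 163 stayed within the technical SD, 12 were higher and 53 lower.

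No paired analysis was possible because each group had 1 array, and for the same reason no replicate was left out. Signal over background limits the low values: the median was 9.47 on the Control array and 5.78 on the array labelled RFF4.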
